A study of Mus musculus with 8 samples.

Results

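The growth hormone and insulin-like growth factor (IGF) axis of the liver was followed here through 10 genes: Ghr, Stat5a, Stat5b, Socs2, Igf1, Igfals, Igfbp1, Igfbp2, Igfbp4 and Bcl6. Its members were the probe sets that the array annotation ties to exactly 1 gene symbol, that symbol being 1 of the 10, which gave 28 of the 45101 probe sets, or 10 of 18193 genes so named. Of these, 26 passed the filter on low values. The Socs2 probe sets 1441476_at and 1438470_at did not pass it, with group means between 1.55 and 2.99 on the log2 scale. RNA came from livers of male C57BL/6 mice aged 7 to 10 weeks, on 8 Affymetrix arrays. The groups were Tob1 null liver 24 h after removal of 2/3 of the liver, Tob1 null liver at 0 h, wild type liver 24 h after the same operation and wild type liver at 0 h. Each group had 2 arrays, each made from a separate pool of 3 animals, so the spread between arrays is a spread between pools. The 0 h livers came from adults described as normal, and no sham-operated group was analysed, so removal of liver tissue and the operation with its anaesthetic (ketamine and xylazine) cannot be told apart. Tob1 encodes an antiproliferative protein of the Tob and Btg family, and its null allele in the labels is that of the whole animal.

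Growth hormone from the pituitary binds its receptor on hepatocytes, the receptor-bound kinase Jak2 phosphorylates STAT5, and STAT5 enters the nucleus and raises the transcription of Igf1, Igfals and Socs2, among other genes. Hepatic IGF-1 circulates in a complex with binding proteins and the acid-labile subunit, whereas IGFBP-1 is a smaller binding protein whose gene is shut down by insulin and switched on by FOXO factors, fasting and injury. In rodents the male pattern of pulsed growth hormone also sets the sex-biased expression of many liver genes, with STAT5b as the main mediator.

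Regulatory sequence was examined in promoter windows of RefSeq, build GRCm38.p6, which run from 250 bases before to 50 bases after each gene's start. At least 1 window was found for 9 of the 10 genes, and Socs2 is named only. The Igfbp1 window is shown because this gene carried the largest difference between the genotypes among the members. It lies at chr11:7197537-7197786 on the plus strand, covering positions -250 to -1, and the capitals mark CAAAACA, the core of the insulin response element to which FOXO factors are known to bind:
Igfbp1 upstream region: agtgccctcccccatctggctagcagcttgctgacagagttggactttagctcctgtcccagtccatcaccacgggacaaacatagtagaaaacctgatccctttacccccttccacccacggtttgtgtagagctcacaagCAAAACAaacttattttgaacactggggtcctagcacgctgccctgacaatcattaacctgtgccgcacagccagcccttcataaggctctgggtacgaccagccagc
The core starts at position -108 (chr11:7197679-7197685). Searched on both strands, CAAAACA was in 6.28% of the 32851 windows of all genes, and among the members in that of Igfbp1 alone. The STAT-type spacing TTCNNNGAA, a palindrome, was in 8.3% of windows. Among the members it was found in windows of Igfals and Bcl6. The stretches from both Igfals windows are shown, plus strand, because Igfals is a textbook STAT5 target, with the motif in capitals:
Igfals, chr17:24877598-24877627: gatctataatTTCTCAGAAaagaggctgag
Igfals, chr17:24878163-24878192: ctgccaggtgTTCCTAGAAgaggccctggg
The other motif searched, TATAAA, was in 13.6% of windows, including those of Ghr and Igfbp4. A match describes letters in a window and not a bound site.

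All 8 arrays read as liver. The mean log2 level of 8 hepatocyte markers was 11.96 in null-labelled liver at 24 h and 11.98 at 0 h, against 12.01 in wild type liver at 24 h and 11.88 at 0 h. The Tob1 probe sets did not settle the genotype. The brighter one, 1423176_at, read 10.66 and 10.58 in Tob1 null liver at 24 h and 11.10 and 11.03 at 0 h, against 9.87 and 10.20 in wild type liver at 24 h and 10.46 and 10.53 at 0 h. It was thus higher in the libraries labelled null, while the dimmer probe set, 1440844_at, had a lower mean there at both times. The sources used here do not give the extent of the deletion, so a signal from either probe set is no proof of an intact gene. These libraries are therefore called null-labelled, and each direction between genotypes rests on the labels. Of the markers of other cells, those of cholangiocytes and progenitors (5 genes) had a mean level of 5.28 to 5.78 in null-labelled liver at 24 h and 4.08 to 4.67 at 0 h, against 5.24 to 5.51 in wild type liver at 24 h and 4.50 to 4.60 at 0 h, and those of Kupffer cells and leucocytes (8 of 9 tested) and endothelium (6) lay between 6.55 and 7.31 on all arrays. Single markers moved more than these means: Marco, a macrophage receptor, rose by 4.13 in null-labelled liver (adjusted p = 0.0116) and by 4.07 on average, passing in wild type liver too (adjusted p = 0.0170), Csf1r, the macrophage growth factor receptor, fell by 0.71 on average (adjusted p = 0.0136), and Afp, the fetal albumin relative in the progenitor list, rose by 3.23 (adjusted p = 0.0163) and 3.00 (adjusted p = 0.0236, all limma). On average 1 gene of the Kupffer cell and leucocyte list passed as higher and 3 as lower (limma). In the cholangiocyte and progenitor list 2 passed as higher and 0 as lower. The endothelial list had 1 higher and 0 lower, and a list of 7 stellate and fibroblast markers 0 higher and 3 lower. Of the 8 hepatocyte markers 1 was higher and 1 lower. By the brightest probe set of all 14424 genes tested, 12.1% were higher and 13.1% lower on average. Marco read 4.12 and 3.25 in null-labelled liver at 0 h, and 3.83 and 3.58 in wild type liver at 0 h. These signals lie near the filter limit of 3.60, so the size of its rise is uncertain. The part of these markers in the responses below was not tested. Replicate arrays of a group correlated at 0.949 to 0.960 over the 45037 probe sets that are not controls. The log2 ratio of the 3' to the 5' beta-actin control, a sign of RNA integrity, was 1.22 and 1.32 in null-labelled liver at 24 h and 1.59 and 1.54 at 0 h, against 1.03 and 0.91 in wild type liver at 24 h and 1.04 and 1.40 at 0 h. It was highest on the null-labelled 0 h arrays, and its part in any result was not tested. In bulk liver, fewer cells of a type and less RNA per cell cannot be told apart.

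The null-labelled 0 h replicate 1 array stood apart from its replicate on genes that female mouse liver expresses more strongly, a check chosen after their values were seen. Of 13 such genes tested, 6 were over 2 log2 units higher on replicate 1 than on replicate 2. Sult3a1, a sulfotransferase, had 9.24 and 3.47 in null-labelled liver at 0 h, against 1.91 and 2.35 in wild type liver at 0 h, and it also differed in null-labelled liver at 24 h, with 7.08 and 2.74. The P450 enzyme Cyp2b9 had 8.09 and 4.60 in null-labelled liver at 0 h, against 3.38 and 4.73 in wild type liver at 0 h. In null-labelled liver at 24 h 1 of the 13 genes was that much higher on replicate 1 and 1 on replicate 2. In wild type liver 1 was that much higher on replicate 2 at 24 h, and 0 differed that much at 0 h. The brightest probe set of Xist, the RNA of the inactive X chromosome in females, had 4.30 and 4.48 in null-labelled liver at 24 h and 7.94 and 3.11 at 0 h, against 4.08 and 3.00 in wild type liver at 24 h and 4.32 and 4.16 at 0 h. The brightest probe set of the Y-linked Eif2s3y had 8.96 and 8.98 in null-labelled liver at 24 h and 8.02 and 8.53 at 0 h, against 9.51 and 9.07 in wild type liver at 24 h and 9.16 and 8.61 at 0 h. The Xist signal of that array thus goes against the label male. Xist 1427262_at read 6.45 there and at most 3.40 elsewhere, and 1427263_at read 4.70 there and up to 4.61 elsewhere. Y-linked signal was present on that array, but its Eif2s3y value was the lowest of all arrays. Uty 1426598_at and 1422247_a_at were lowest there too, at 6.27 and 4.18, whereas Kdm5d 1424903_at, at 5.76, was not. The other Y-linked probe sets did not exceed 3.99 on any array. The label was kept. The members themselves differed by a median of 0.11 and at most 0.91 between the null-labelled 0 h arrays, against a median of 0.20 and at most 1.72 between the wild type 0 h arrays. The part of that array in the results below was measured only by leaving it out. Member calls that changed without it are named beside each result. For the gene lists, the calls given for single genes are those of the fit with all arrays, and their loss without that array is not listed.

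At 24 h after hepatectomy, most members that changed were lower, and Igfbp1 was higher on average and in null-labelled liver. In null-labelled liver 9 of the 26 probe sets passed limma at an adjusted p under 0.05, 1 higher (Igfbp1) and 8 lower (of Socs2, Stat5b, Ghr and Igfbp4), where 10.8% of all 30525 probe sets tested passed, 6.06% higher and 4.72% lower. In wild type liver 2 of 26 passed, both lower (Stat5b and Ghr), against 5.34% of all probe sets, 2.64% higher and 2.7% lower. With both genotypes averaged, 11 of 26 passed, 1 higher and 10 lower, adding Igfals and a second Ghr probe set, against 23.8% of all probe sets, 12.4% higher and 11.4% lower. The median response of the 26 was -0.55 in null-labelled and -0.32 in wild type liver on the log2 scale, beside medians over all probe sets of -0.02 and -0.0012. The arrays at 24 h and at 0 h did not overlap for 23 of 26 members in null-labelled liver (17 lower and 6 higher) and for 15 of 26 in wild type liver (14 lower and 1 higher), where 60.3% (30.6% lower and 29.7% higher) and 59.4% (29.7% lower and 29.8% higher) of all probe sets did not overlap. These counts rest on few arrays, and probe sets of the same gene are counted separately. In every refit that left out an array, fewer of all probe sets passed than in the full fit, in each genotype and on average. The losses given next are therefore not shown to be particular to the members. In null-labelled liver the 9 became 2 without its 24 h replicate 1, 0 without its 24 h replicate 2 or either of its 0 h arrays, 5 without either wild type 24 h array and 4 without either wild type 0 h array. In wild type liver the 2 became 0 without any 1 of its own arrays or either null-labelled 0 h array. The averaged 11 became 7 without null-labelled 24 h replicate 2, 4 and 6 without null-labelled 0 h replicates 1 and 2, 6 without wild type 24 h replicate 1, and 5 without either wild type 0 h array.

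**Figure D1:**
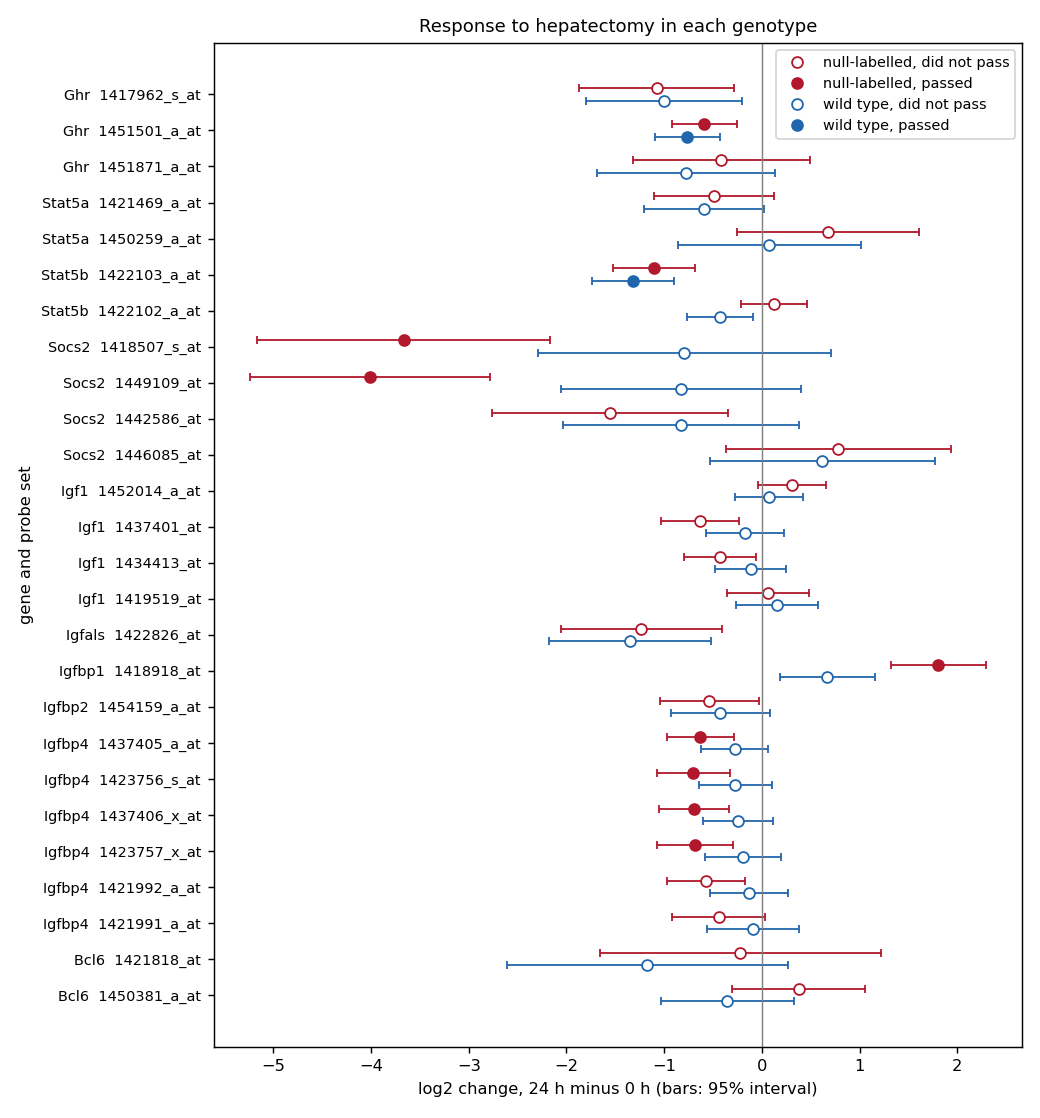
Response to hepatectomy, 24 h minus 0 h on the log2 scale, of the 26 member probe sets tested, by genotype. Bars are limma's 95% confidence intervals. Igfbp1 lies right of 0 in both genotypes, and the Socs2 probe sets 1449109_at and 1418507_s_at lie farthest to the left in null-labelled liver, at -4.01 and -3.67.

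The growth hormone receptor was lower at 24 h. Ghr was read by 3 probe sets. The brightest, 1417962_s_at, had 11.09 and 10.09 in null-labelled liver at 24 h and 11.66 on both arrays at 0 h, against 10.57 and 10.89 in wild type liver at 24 h and 11.71 and 11.74 at 0 h. Every 24 h array was below every 0 h array. The averaged response was -1.04 ± 0.23 (SE, 2 arrays per group, adjusted p = 0.0259 by limma), a level 2.05-fold lower. Neither genotype passed alone (adjusted p = 0.0861 and 0.124), and the averaged call was lost on leaving out any array except the null-labelled 24 h ones, with adjusted p up to 0.0831. The null-labelled response passed without null-labelled 24 h replicate 1 (adjusted p = 0.0399), and the wild type response without either null-labelled 24 h array (0.0472). The second probe set, 1451501_a_at, had 10.61 and 10.52 in null-labelled liver at 24 h and 11.11 and 11.20 at 0 h, against 10.43 and 10.59 in wild type liver at 24 h and 11.32 and 11.23 at 0 h. Its groups did not overlap between times in either genotype, and it fell by 0.59 ± 0.14 in null-labelled liver (adjusted p = 0.0484) and by 0.76 ± 0.14 in wild type liver (adjusted p = 0.0399, limma). Both calls were lost without any 1 of the 8 arrays (adjusted p 0.0683 to 0.181 in null-labelled and 0.0530 to 0.181 in wild type liver), whereas the averaged fall of 0.68 ± 0.10 (adjusted p = 0.00874) passed in all 8 of these refits. The dimmest, 1451871_a_at, had 8.92 and 8.00 in null-labelled liver at 24 h and 8.76 and 8.99 at 0 h, against 8.38 and 8.92 in wild type liver at 24 h and 9.70 and 9.15 at 0 h. Its times overlapped in null-labelled liver, and no comparison passed.

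Of the transducers, Stat5b, the STAT5 protein that carries most of the growth hormone signal in mouse liver, was lower at 24 h on its brighter probe set, 1422103_a_at. It had 6.83 and 6.74 in null-labelled liver at 24 h and 7.74 and 8.04 at 0 h, against 6.71 and 6.62 in wild type liver at 24 h and 8.12 and 7.85 at 0 h. The times were well apart in both genotypes and the genotypes overlapped at 0 h. It fell by 1.11 ± 0.17 in null-labelled liver (adjusted p = 0.0237) and by 1.32 ± 0.17 in wild type liver (adjusted p = 0.0260), 2.15-fold and 2.5-fold lower, and by 1.21 ± 0.12 on average (adjusted p = 0.00449, all limma). The averaged call passed in all 8 refits that left out an array. The null-labelled call was lost without any 1 of that genotype's 4 arrays (adjusted p up to 0.10), and the wild type call without any array except the null-labelled 24 h ones (up to 0.131). The dimmer Stat5b probe set, 1422102_a_at, read 5.91 and 5.89 in null-labelled liver at 24 h and 5.73 and 5.81 at 0 h, against 5.90 and 5.71 in wild type liver at 24 h and 6.29 and 6.18 at 0 h. It did not move with the first: its response was 0.13 in null-labelled liver (adjusted p = 0.569) and -0.43 in wild type liver (adjusted p = 0.121). Within an array, the brighter minus the dimmer probe set was 0.92 and 0.85 in null-labelled liver at 24 h and 2.01 and 2.23 at 0 h, against 0.81 and 0.91 in wild type liver at 24 h and 1.83 and 1.67 at 0 h, so that the signals of the pair changed unequally in both genotypes.

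Stat5a, the close relative with a smaller part in liver, was dim. Its brighter probe set, 1421469_a_at, had 6.11 and 5.70 in null-labelled liver at 24 h and 6.49 and 6.30 at 0 h, against 5.80 and 5.98 in wild type liver at 24 h and 6.78 and 6.19 at 0 h. All 24 h arrays were below all 0 h arrays, but the averaged response of -0.54 did not pass (adjusted p = 0.0753). The dimmer, 1450259_a_at, had 4.97 and 4.37 in null-labelled liver at 24 h and 3.71 and 4.27 at 0 h, against 5.00 and 4.80 in wild type liver at 24 h and 5.29 and 4.36 at 0 h. Its response was 0.68 in null-labelled liver (adjusted p = 0.284) and 0.08 in wild type liver (adjusted p = 0.924).

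Socs2, a STAT5-induced inhibitor that dampens growth hormone receptor signalling, had the largest response of any member. Its brightest probe set, 1418507_s_at, had 4.72 and 5.42 in null-labelled liver at 24 h and 8.97 and 8.49 at 0 h, against 6.97 and 6.14 in wild type liver at 24 h and 6.49 and 8.21 at 0 h. The second, 1449109_at, had 4.52 and 4.88 in null-labelled liver at 24 h and 8.99 and 8.44 at 0 h, against 6.96 and 6.25 in wild type liver at 24 h and 6.74 and 8.13 at 0 h. On both, the null-labelled arrays were the lowest of all 8 at 24 h and the highest of all 8 at 0 h, and the wild type times overlapped because the wild type 0 h arrays differed by over 1 log2 unit. In null-labelled liver 1418507_s_at fell by 3.67 ± 0.61 (adjusted p = 0.0263), 12.7-fold lower, and 1449109_at fell by 4.01 ± 0.50 (adjusted p = 0.0173, limma), 16.1-fold lower. In wild type liver the responses were -0.80 ± 0.61 (adjusted p = 0.461) and -0.83 ± 0.50 (adjusted p = 0.352). The wild type response of 1418507_s_at rested on wild type 0 h replicate 2: without it the value was 0.07. Likewise the wild type response of 1449109_at was -0.13 without wild type 0 h replicate 2 and -1.52 without replicate 1. The difference between the responses was -2.87 ± 0.87 and -3.18 ± 0.71, with 95% intervals of -4.99 to -0.75 and -4.92 to -1.45, and did not pass (adjusted p = 0.601 and 0.584; unadjusted p = 0.0161 and 0.00411). Between genotypes the differences did not pass either: -1.49 and -1.90 at 24 h (adjusted p = 0.491 and 0.353), and 1.38 and 1.28 at 0 h (adjusted p = 0.570 and 0.534). The 0 h differences depended on single arrays: they were 0.52 and 0.59 without wild type 0 h replicate 1, 2.25 and 1.98 without wild type 0 h replicate 2, and 1.14 and 1.01 without null-labelled 0 h replicate 1. The null-labelled calls of both probe sets were lost without any 1 of the 4 null-labelled arrays (adjusted p up to 0.124 and 0.0951). Averaged over genotypes, 1449109_at fell by 2.42 ± 0.36 (adjusted p = 0.00920) and passed in all 8 refits, and 1418507_s_at fell by 2.23 ± 0.43 (adjusted p = 0.0184), which was lost without null-labelled 0 h replicate 1 (adjusted p = 0.0612) or wild type 24 h replicate 2 (0.0519).

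The other Socs2 probe sets were dim. 1442586_at had 4.99 and 3.80 in null-labelled liver at 24 h and 5.56 and 6.34 at 0 h, against 4.84 and 4.74 in wild type liver at 24 h and 6.05 and 5.18 at 0 h, lower at 24 h on every array, with an averaged response of -1.19 that did not pass (adjusted p = 0.0562). 1446085_at lay between 2.66 and 4.10 on all arrays and passed nowhere. Cish, another STAT5-induced inhibitor of cytokine receptors and the gene with the smallest p in the list of other pathway genes below, had 5.53 and 6.00 in null-labelled liver at 24 h and 7.16 and 7.34 at 0 h, against 7.38 and 7.09 in wild type liver at 24 h and 6.54 and 6.32 at 0 h. Its order was that of Socs2 in null-labelled liver, where it fell by 1.48 ± 0.22 (adjusted p = 0.0218, limma), while both wild type arrays at 24 h lay above both at 0 h, with a response of 0.81 ± 0.22 that did not pass (adjusted p = 0.0835). The difference of the responses was -2.29 and did not pass (adjusted p = 0.456; unadjusted p = 0.000279).

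**Figure D2:**
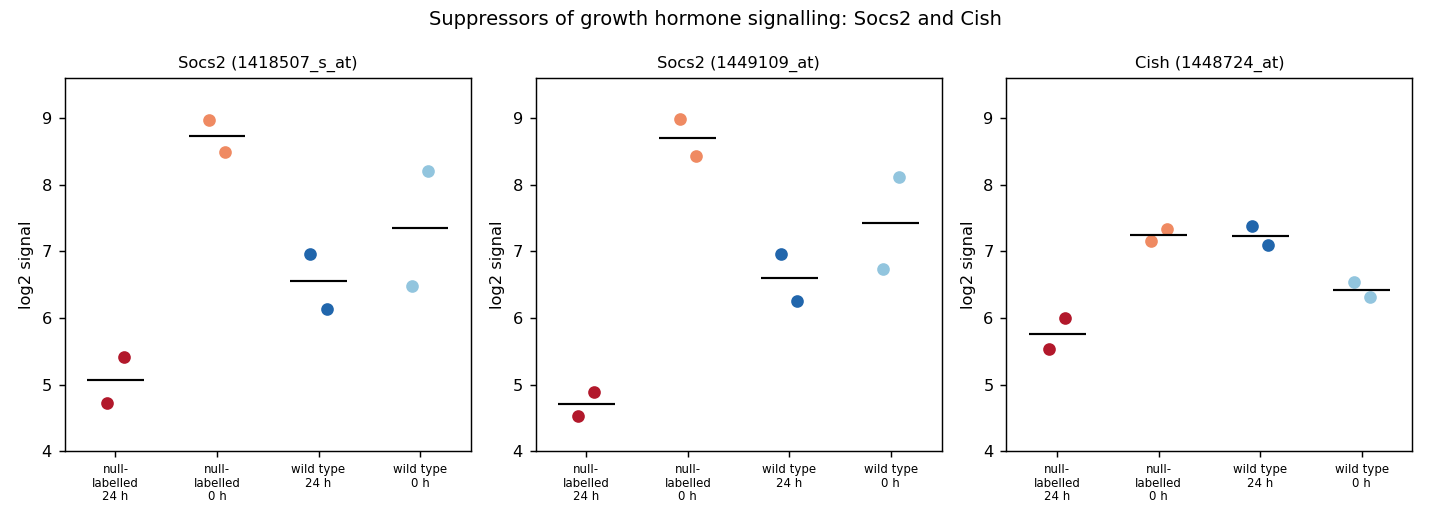
Log2 signal of 2 Socs2 probe sets and of Cish on every array (points) with group means (lines). The null-labelled 24 h arrays are the lowest in each panel and the null-labelled 0 h arrays the highest for Socs2.

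Igf1, the growth factor that the liver secretes in response to growth hormone, kept a high signal in every group. Its brightest probe set, 1452014_a_at, had 12.10 and 11.98 in null-labelled liver at 24 h and 11.71 and 11.75 at 0 h, against 11.86 and 11.85 in wild type liver at 24 h and 11.89 and 11.67 at 0 h. Its response was 0.31 (95% interval -0.04 to 0.65) in null-labelled and 0.07 (-0.27 to 0.42) in wild type liver, neither past the test (adjusted p = 0.201 and 0.785). 1437401_at had 10.99 and 10.64 in null-labelled liver at 24 h and 11.49 and 11.41 at 0 h, against 10.96 and 11.08 in wild type liver at 24 h and 11.18 and 11.20 at 0 h. All 24 h arrays were below all 0 h arrays, with responses of -0.63 (adjusted p = 0.0618) and -0.17 (adjusted p = 0.553) that did not pass. 1434413_at had 10.98 and 10.69 in null-labelled liver at 24 h and 11.28 and 11.24 at 0 h, against 10.93 and 10.98 in wild type liver at 24 h and 11.09 and 11.05 at 0 h, the same order as 1437401_at with smaller differences (null-labelled response -0.43, adjusted p = 0.117). 1419519_at had 10.37 and 10.07 in null-labelled liver at 24 h and 10.16 and 10.15 at 0 h, against 10.11 and 10.31 in wild type liver at 24 h and 10.16 and 9.94 at 0 h, overlapping throughout.

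The Igf1 probe sets thus differed in sign. Within an array, 1437401_at minus 1452014_a_at was -1.10 and -1.35 in null-labelled liver at 24 h and -0.22 and -0.35 at 0 h, against -0.90 and -0.77 in wild type liver at 24 h and -0.71 and -0.47 at 0 h. This difference moved by -0.94 in null-labelled and by -0.25 in wild type liver. It was lower at 24 h on every array. The 3' to 5' actin ratio above also differed between the null-labelled times, and its part was not tested. No Igf1 probe set passed in any of the 7 comparisons of this fit.

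**Figure D3:**
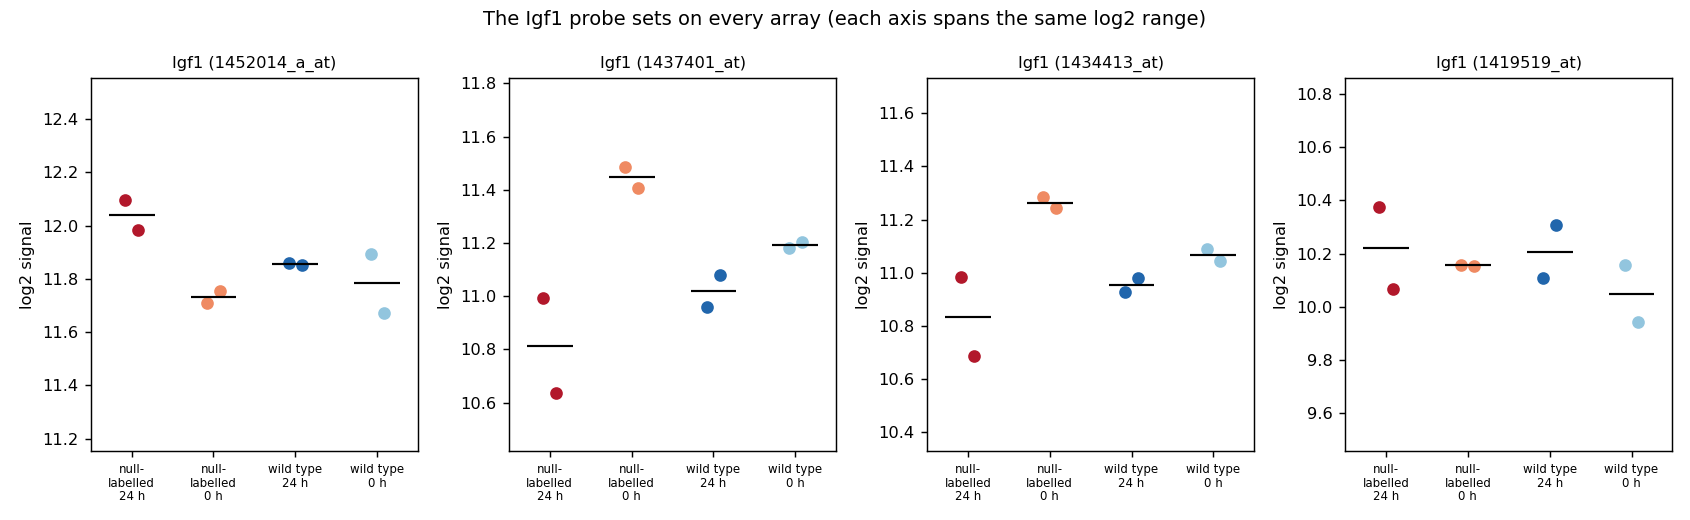
Log2 signal of the 4 Igf1 probe sets on every array (points) with group means (lines), each axis spanning the same range. The brightest, 1452014_a_at, is highest in null-labelled liver at 24 h, where 1437401_at and 1434413_at have their lowest group means.

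Igfals, the acid-labile subunit that holds IGF-1 in its circulating complex, was lower at 24 h in both genotypes. It had 8.21 and 7.82 in null-labelled liver at 24 h and 9.42 and 9.08 at 0 h, against 7.18 and 8.14 in wild type liver at 24 h and 8.95 and 9.08 at 0 h. No 24 h array reached a 0 h array. It fell by 1.29 ± 0.24 on average (adjusted p = 0.0164, limma), 2.45-fold lower, with -1.23 in null-labelled (adjusted p = 0.0700) and -1.35 in wild type liver (adjusted p = 0.0729) that did not pass alone. The averaged call was lost without null-labelled 0 h replicate 1 (adjusted p = 0.0564) or either wild type 0 h array (0.0515 and 0.0555), and the null-labelled response passed without either wild type 24 h array (0.0452).

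Igfbp1, the insulin-repressed binding protein of the region shown above, was the only member called higher in either genotype or on average in this fit. With a trended robust prior the wild type response of Igfbp1 passed as well (adjusted p = 0.0158), and so did rises of Igf1 1452014_a_at, 0.31 in null-labelled liver (adjusted p = 0.0315) and 0.19 on average (adjusted p = 0.0386). The single Igfbp1 probe set, 1418918_at, had 10.75 and 10.56 in null-labelled liver at 24 h and 8.82 and 8.88 at 0 h, against 12.36 and 11.89 in wild type liver at 24 h and 11.36 and 11.55 at 0 h. The 4 groups did not overlap: wild type at 24 h was highest, then wild type at 0 h, then null-labelled at 24 h, and null-labelled at 0 h was lowest, so that both null-labelled groups lay below both wild type groups. In null-labelled liver it rose by 1.80 ± 0.20 (adjusted p = 0.0166), 3.49-fold, and on average by 1.24 ± 0.14 (adjusted p = 0.00550, limma). The wild type response was 0.67 ± 0.20 and did not pass (adjusted p = 0.104). The averaged call passed in all 8 refits that left out an array. The null-labelled call passed in 5 of 8 and was lost without null-labelled 24 h replicate 2 (adjusted p = 0.0580) or either null-labelled 0 h array (0.0933 and 0.0781). The difference between the responses was 1.14 ± 0.28 (95% interval 0.45 to 1.82, adjusted p = 0.584).

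Between genotypes, Igfbp1 was -2.60 ± 0.20 at 0 h (95% interval -3.09 to -2.12), a mean signal 6.08-fold lower in null-labelled liver, and -1.47 ± 0.20 at 24 h (-1.96 to -0.98), 2.77-fold lower. At 0 h it had the smallest p of all 30525 probe sets (1.18e-05), yet the adjusted p was 0.178. At 24 h the adjusted p was 0.201. Averaged over both times, a comparison added after the data were seen, the difference was -2.04 ± 0.14 (unadjusted p = 6.53e-06, rank 3, adjusted p = 0.0639), and lower in 4 of 4 null-labelled arrays. It passed when each gene was represented by 1 probe set, where 0.0346% of the genes tested passed. So the difference exceeded the spread between arrays but did not pass the threshold over all probe sets in the fit as planned. It was negative in all alternatives run, between -2.71 and -2.51 at 0 h (-2.57 without null-labelled 0 h replicate 1) and between -1.71 and -1.23 at 24 h.

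**Figure D4:**
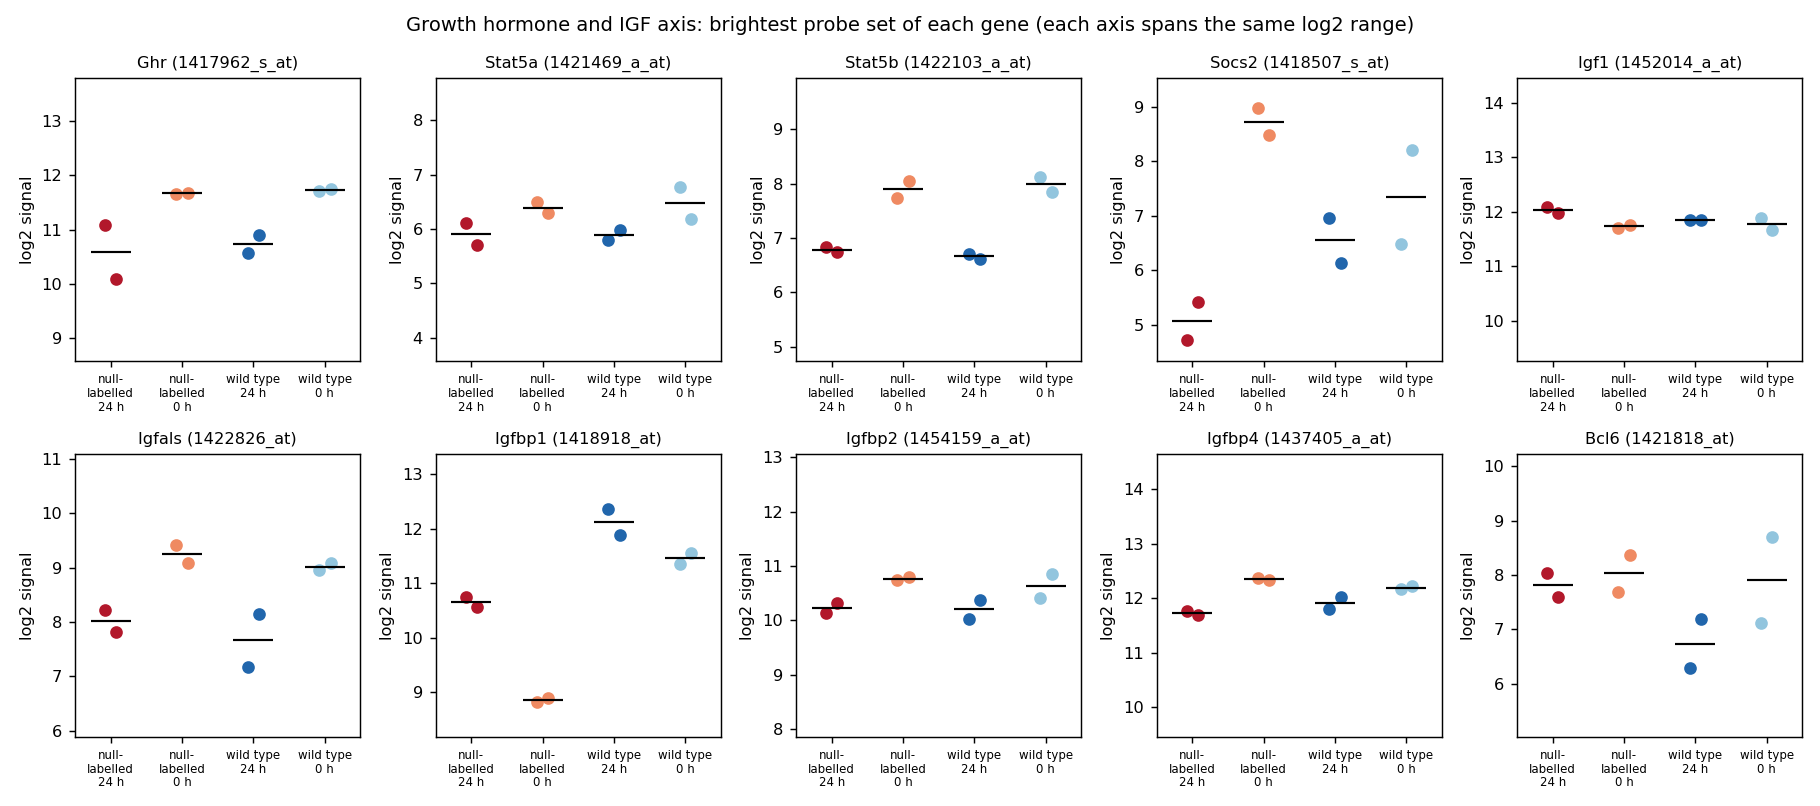
Log2 signal of the brightest probe set of each of the 10 genes on every array (points), with group means (lines). Igfbp1 separates all 4 groups, whereas for Stat5b the times lie much farther apart than the genotypes.

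Igfbp2, a binding protein made by hepatocytes, had 10.13 and 10.33 in null-labelled liver at 24 h and 10.74 and 10.80 at 0 h, against 10.04 and 10.37 in wild type liver at 24 h and 10.41 and 10.84 at 0 h. Each 24 h array was below each 0 h array of the same genotype, but the averaged response of -0.48 did not pass (adjusted p = 0.0630).

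Igfbp4, a binding protein that restrains IGF action until cleaved by the protease PAPP-A, was read by 6 probe sets. The brightest, 1437405_a_at, had 11.76 and 11.70 in null-labelled liver at 24 h and 12.38 and 12.33 at 0 h, against 11.80 and 12.03 in wild type liver at 24 h and 12.17 and 12.22 at 0 h. The null-labelled arrays were the lowest at 24 h and the highest at 0 h. 4 of the 6 passed in null-labelled liver, 1437405_a_at, 1423756_s_at, 1437406_x_at and 1423757_x_at, with falls of 0.63 to 0.70 (adjusted p = 0.0409 to 0.0480, limma), and the same 4 passed on average. The averaged calls rested on all arrays: 1423757_x_at passed in 0 of the 8 refits that left out an array and the other 3 in 2 of 8, those without null-labelled 24 h replicate 1 or wild type 24 h replicate 2, with adjusted p up to 0.116. None passed in wild type liver, where 1437405_a_at gave -0.28 (adjusted p = 0.270), and the difference of the responses did not pass (-0.35, adjusted p = 0.705). The null-labelled calls were lost without any 1 of the 8 arrays (adjusted p 0.0511 to 0.196). These 4 probe sets may share target sequence and are not separate evidence. Their other values ran in parallel. 1423756_s_at had 11.62 and 11.48 in null-labelled liver at 24 h and 12.30 and 12.20 at 0 h, against 11.60 and 11.87 in wild type liver at 24 h and 11.99 and 12.03 at 0 h. 1437406_x_at had 11.42 and 11.35 in null-labelled liver at 24 h and 12.11 and 12.05 at 0 h, against 11.48 and 11.76 in wild type liver at 24 h and 11.84 and 11.88 at 0 h. On both, the wild type times also stood apart. 1423757_x_at had 11.35 and 11.18 in null-labelled liver at 24 h and 12.01 and 11.89 at 0 h, against 11.36 and 11.61 in wild type liver at 24 h and 11.60 and 11.75 at 0 h, and here the wild type times overlapped. The dimmer pair did not pass. 1421992_a_at had 10.70 and 10.50 in null-labelled liver at 24 h and 11.22 and 11.11 at 0 h, against 10.60 and 10.90 in wild type liver at 24 h and 10.91 and 10.85 at 0 h. 1421991_a_at had 9.74 and 9.39 in null-labelled liver at 24 h and 10.12 and 9.88 at 0 h, against 9.49 and 9.77 in wild type liver at 24 h and 9.78 and 9.66 at 0 h, with the same order in null-labelled liver.

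Bcl6, a repressor that competes with STAT5 at shared sites and is itself lowered by growth hormone in mouse liver, was variable. Its brighter probe set, 1421818_at, had 8.03 and 7.59 in null-labelled liver at 24 h and 7.69 and 8.37 at 0 h, against 6.29 and 7.18 in wild type liver at 24 h and 7.11 and 8.71 at 0 h. The arrays at 24 h were higher in null-labelled liver, by 1.08 on average, without passing (adjusted p = 0.590), and the wild type 0 h arrays differed by more than that. The dimmer, 1450381_a_at, had 6.01 and 6.32 in null-labelled liver at 24 h and 5.74 and 5.84 at 0 h, against 5.74 and 5.59 in wild type liver at 24 h and 5.62 and 6.42 at 0 h. No Bcl6 comparison passed.

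Over all members, 0 of 26 passed limma between genotypes at 24 h, 0 at 0 h, 0 averaged over times and 0 in the difference of the responses, as did 0% of all probe sets in each. At an unadjusted p under 0.05 there were 2, 3, 1 and 4 members, and 3134, 2779, 3471 and 2433 of all 30525 probe sets. The smallest adjusted p over all probe sets was 0.0696 at 24 h, 0.178 at 0 h, 0.0639 averaged and 0.456 for the difference of the responses. The genotypes did not overlap for 10 of 26 members at 24 h, 4 higher and 6 lower in null-labelled liver, where 39.6% of all probe sets did not overlap (19.2% higher and 20.4% lower), and for 17 of 26 at 0 h, 11 higher and 6 lower, where 46.2% did not (22.2% higher and 24% lower). The responses within each genotype share their 0 h arrays with these comparisons. The 11 members higher without overlap at 0 h were probe sets of Socs2, Igf1, Igfals and Igfbp4 only. Probe sets of the same gene are not separate evidence.

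**Figure D5:**
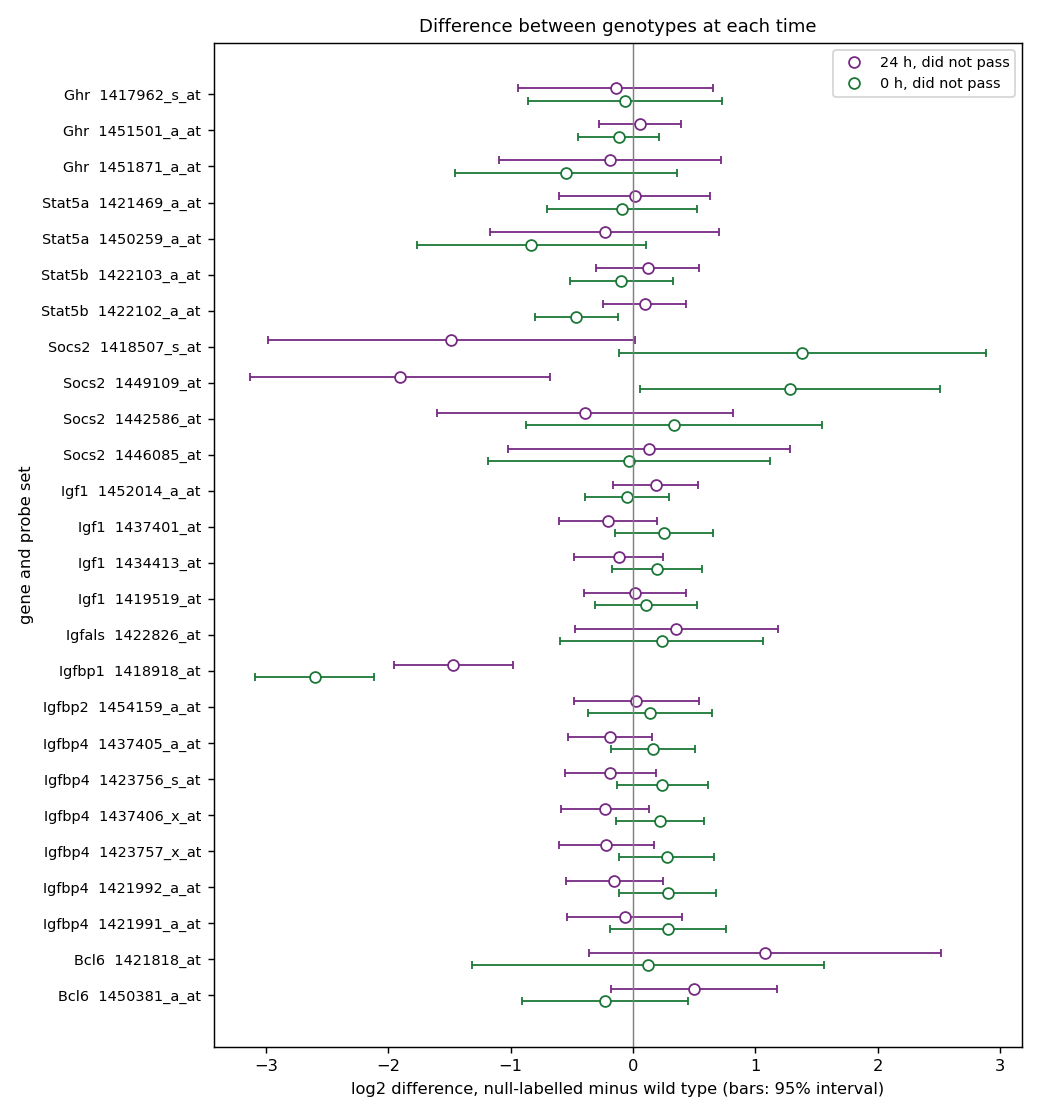
Null-labelled minus wild type log2 signal of the 26 member probe sets tested, at 24 h and at 0 h, with limma's 95% confidence intervals. Igfbp1 is farthest from 0 on the negative side at 0 h (-2.60), and the 2 brightest Socs2 probe sets are negative at 24 h and positive at 0 h.

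The other genes of the pathway were a list of 42, of which 37 were tested, each by its brightest probe set. By the brightest probe set of all 14424 genes tested, 5.67% were higher and 5.37% lower in null-labelled liver, 2.52% higher and 3.27% lower in wild type liver, and 12.1% higher and 13.1% lower on average, and the counts of this and the next 3 lists are read against these. In null-labelled liver 0 were higher and 6 lower at 24 h, in wild type liver none passed (limma), and on average 5 were higher and 9 lower. At an unadjusted p under 0.05 there were 15 in null-labelled and 16 in wild type liver. Over all 30525 probe sets there were 9402 and 8011. The list's median response was -0.24 in null-labelled and -0.11 in wild type liver. Without null-labelled 0 h replicate 1 the null-labelled median was -0.11. These counts also rested on single arrays. Without any 1 array, 0 to 2 genes of the list were lower in null-labelled liver, and on average 0 to 3 were higher and 1 to 8 lower. Beside Cish, those lower in null-labelled liver were Foxo3, a FOXO factor that insulin holds in the cytoplasm (-1.38, adjusted p = 0.0295), Insr, the insulin receptor (-0.93, adjusted p = 0.0376), Pik3ca, the catalytic subunit of the kinase below it (-0.64, adjusted p = 0.0384), and the binding proteins Igfbp3 (-0.93, adjusted p = 0.0388) and Igfbp5 (-0.80, adjusted p = 0.0327), which form the circulating complex with Igfals. Their wild type responses were all negative and none passed: -0.88, -0.38, -0.35, -0.49 and -0.40. Igfbp3, which non-parenchymal liver cells make, was also in the list of 7 stellate and fibroblast markers. That list's mean level was 6.55 to 6.80 in null-labelled liver at 24 h and 6.88 to 7.18 at 0 h, against 6.85 to 6.87 in wild type liver at 24 h and 7.06 to 7.32 at 0 h. Its part in the Igfbp3 value was not tested.

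Among the signalling adaptors, averaged responses that passed were positive for Grb14, an inhibitor of the insulin receptor (0.69, adjusted p = 0.0173), Ptpn11, the phosphatase SHP-2 (0.46, adjusted p = 0.0326), and Grb2, the adaptor to the Ras pathway (0.37, adjusted p = 0.0321). They were negative for Sos1, the Ras exchange factor that Grb2 binds (-0.88, adjusted p = 0.0211), Grb10, a relative of Grb14 (-0.65, adjusted p = 0.0306), and Igf2bp3, an RNA-binding protein of the fetal Igf2 transcript (-0.43, adjusted p = 0.0303). No gene of the list passed between genotypes.

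Genes whose liver expression depends on the sex-specific growth hormone pattern were listed as well. Of 12 male-biased genes tested, 5 were lower at 24 h in null-labelled liver, 6 in wild type liver and 9 on average, with none higher. Their median response was -1.09 in null-labelled and -1.41 in wild type liver. Without null-labelled 0 h replicate 1 the null-labelled median was -1.13. Without any 1 array, 0 to 5 were lower in null-labelled liver, 0 to 6 in wild type liver and 6 to 9 on average. Slco1a1, a transporter of organic anions, fell by 1.76 in null-labelled liver (adjusted p = 0.0155) and by 1.70 in wild type liver (adjusted p = 0.0224). The P450 enzyme Cyp2u1 fell by 1.19 and 2.45 (adjusted p = 0.0330 and 0.0197), Susd4, a complement regulator, by 1.35 and 1.18 (0.0171 and 0.0279), and Nudt7, a peroxisomal coenzyme A hydrolase, by 1.08 and 1.84 (0.0449 and 0.0262), in null-labelled and in wild type liver. Of 13 female-biased genes tested, 1 was higher in each genotype and 2 on average, with none lower and medians of 0.0009 and 0.07. Without null-labelled 0 h replicate 1, described above, the null-labelled median was 1.23, with 0 higher in null-labelled liver and 3 on average; without replicate 2 it was -0.44, with 0 higher in null-labelled liver and 1 higher and 1 lower on average. The gene higher in both was Sult1e1, the estrogen sulfotransferase, with mean log2 signals of 8.82 in null-labelled liver at 24 h and 3.29 at 0 h, against 7.81 in wild type liver at 24 h and 2.77 at 0 h. Its 0 h means lay below the filter limit of 3.60, so the sizes of its responses, 5.54 and 5.04, are uncertain. Trim24, a nuclear receptor cofactor, passed on average (1.25, adjusted p = 0.0171). Between genotypes 0 genes of either list passed at 24 h or at 0 h (limma). The female-biased median, null-labelled minus wild type, was 0.72 at 24 h and 0.62 at 0 h. Without null-labelled 0 h replicate 1 the 0 h median was 0.24. The male-biased median was 0.04 at 24 h and -0.22 at 0 h.

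Of 12 hepatic regulators tested, 5 were lower in null-labelled liver, 2 in wild type liver and 4 on average. Their median null-labelled response was -0.57, and -0.59 without null-labelled 0 h replicate 1. Without any 1 array, 0 to 3 were lower in null-labelled liver, 0 to 2 in wild type liver and 2 to 4 on average. Nr1d1, the clock repressor Rev-erb alpha, fell by 3.92 in null-labelled liver (adjusted p = 0.0121) and by 2.92 in wild type liver (adjusted p = 0.0236). Cebpa, a factor of mature hepatocytes, fell by 1.97 (adjusted p = 0.0197) and by 1.38 (adjusted p = 0.0455). Foxa2 fell by 0.83 in null-labelled liver (adjusted p = 0.0247) with -0.20 in wild type liver (adjusted p = 0.396), and Onecut1, a factor tied to sex-biased liver genes, fell by 2.76 in null-labelled liver (adjusted p = 0.0391) with -0.38 in wild type liver (adjusted p = 0.726). The differences of these responses did not pass for Foxa2 (-0.63, adjusted p = 0.601) or Onecut1 (-2.39, adjusted p = 0.601). The labels used here give no hour of day for the tissue.

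The probe sets most like a member over the 8 arrays, by Pearson's r as a description, were those of Cystm1 (0.989), Atp6v1b2 (0.982) and Kdf1 (0.973) for Igfbp1. For Socs2 1418507_s_at they were Zfp644 (0.982), Fzd8 (0.982) and Flii (0.974), and for Igf1 1452014_a_at they were Ddx47 (0.972), Exosc3 (0.960) and Cpne3 (0.960). These arrays share their pools and group structure, and the leaders were picked from all probe sets tested.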

How the data were processed

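Total RNA of 8 liver pools was hybridised to Affymetrix arrays. The deposited log2 values, 1 per probe set and array, were used; their log2 unit was read from the values, and no source used here names the authors' signal algorithm. The number of arrays limits the precision. Values were quantile normalised between arrays, control probe sets were left out, and 30525 of 45037 probe sets above the 40th percentile of their array on at least 2 of 8 arrays were tested. limma 3.58.1 in R 4.3.3 fitted 1 mean for each of the 4 groups with lmFit and eBayes (4 residual and 2.04 prior degrees of freedom), two-sided, with Benjamini-Hochberg adjustment over all probe sets, called at an adjusted p under 0.05. A fold is 2 to the power of a difference of mean log2 values.

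Gene names came from GEO's platform annotation, in which 34945 probe sets have 1 symbol, 932 several and 9160 none. The members, lists and comparisons were chosen with earlier results of these data known. All member probe sets past the filter are given, and from the pathway list up to 12 genes that passed in any comparison, smallest p first, with up to 4 from each other list. 6 comparisons were planned and the seventh, the genotypes averaged over times, was added later. Alternatives were the deposited scale, median centring, other filters, 1 probe set per gene, damping of low values, a trended robust prior, the replicate block, a fit of the compared groups only, another threshold and leaving out each array. Tested on simulated data with 30525 probe sets, the null-labelled response fit recovered 62% of added changes of 2 log2 units and 14% of those of 1, the genotype fit at 24 h 58% and 9%, and the difference of the responses 18% and 0%. The simulation changed few probe sets, and only in the null-labelled 24 h group. In the data 10.8% of all probe sets passed in the null-labelled response. The adjusted threshold therefore differs, and these shares do not carry over to the fits of the data.

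Same-numbered arrays of different groups deviated from their group means with correlations between -0.17 and 0.06, so the numbers were not taken to pair them.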

Additional observations from a re-analysis of the deposited data

Results flagged for a closer look

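For 9 of the probe sets named here, all arrays of one genotype or time moved one way and all arrays of the other moved the opposite way. The difference of the responses, null-labelled minus wild type, was tested in limma for each and did not pass over all probe sets (adjusted p = 0.456 for Cish, 0.584 to 0.705 for the others). The share of all probe sets with such opposite moves was not counted, so the 9 are not shown to be an excess. In single comparisons 39.6% (genotypes at 24 h) to 60.3% (times in null-labelled liver) of all probe sets did not overlap. The genes outside the members had been picked by smallest p. Socs2 was above wild type in every null-labelled array at 0 h and below it at 24 h, with differences of the responses of -2.87 (1418507_s_at) and -3.18 (1449109_at). Igfbp4 had the same pattern on 1423757_x_at (-0.49), 1437405_a_at (-0.35) and 1437406_x_at (-0.45), which may share target sequence. The dimmer Stat5b probe set 1422102_a_at was higher at 24 h in null-labelled and lower in wild type liver (0.56). Among the other genes named, Cish was lower at 24 h in null-labelled and higher in wild type liver (-2.29), the hepatic regulator Onecut1 lay above wild type at 0 h and below it at 24 h (-2.39), and Nudt7 of the male-biased list lay below wild type at 0 h and above it at 24 h (0.76).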

How the results depend on the processing

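No member call of the main fit changed its sign under any alternative. The difference of the responses had 0 members past the threshold under every alternative that kept all arrays. Estimates that had not passed did change sign. Counted over members and settings, this happened 52 times for the genotypes averaged over times, 24 at 24 h and 13 at 0 h. It happened 19 times for the difference of the responses. For the responses it happened 9 times in wild type liver, 5 in null-labelled liver and 5 on average. The averaged response (11 members) gave 6 with no filter and 18 with the trended robust prior, and 4 to 12 on leaving out 1 array. The null-labelled response (9) gave 3 with median centring, 0 with no filter, 14 with the filter at the 60th percentile, 14 with 16 added to linear values, 16 with the trended robust prior, 0 with only the compared groups fitted and 14 at an adjusted p under 0.1, and 0 to 5 without 1 array. The wild type response (2) gave 1 with median centring, 0 with no filter, 4 with the 60th percentile, 1 with 1 probe set per gene, 4 with 16 added, 4 with the trended robust prior, 0 with only the compared groups fitted, and 0 to 2 without 1 array. Between genotypes, where 0 passed, Igfbp1 alone made 1 at 0 h and 1 at 24 h with 16 added (adjusted p = 0.0123 and 0.0371) and with the trended robust prior (0.000461 and 0.00458). Averaged over times it made 1 on the deposited scale, with median centring, the 60th percentile, 1 probe set per gene, 16 added, the trended robust prior and at an adjusted p under 0.1, and 0 without any 1 array. With 1 probe set per gene, 6 genes passed on average and 4 in null-labelled liver, where the fit over all probe sets called those of 6 and 5 genes. Of all genes tested in that setting, 28.8% and 14.7% passed. With the replicate number as a block, 2 members passed in the null-labelled response and 0 in the wild type response, and it changed no other count by over 1.5 times. There 2.31% and 0.0197% of all probe sets passed. The share of all probe sets that passed moved in the other settings too. In the null-labelled response it was 9.88% with median centring, 0.158% with no filter and 28.2% at the 60th percentile. It was 17.1% with 16 added and 19.3% with the trended robust prior. With only the compared groups it was 0%, and 21.4% at an adjusted p under 0.1. In the wild type response that share was 3.21% with median centring, 0.0266% with no filter and 20.1% at the 60th percentile. It was 9.21% with 1 probe set per gene and 11.9% with 16 added. With the trended robust prior it was 14.9%, and 0% with only the compared groups. On average it was 8.46% with no filter and 29.8% with the trended robust prior. Between genotypes it was at most 0.829% in any setting. The cause of these changes was not tested, beyond the fewer samples or other number of probe sets that some settings have. Signals near the filter limit, such as Socs2 1446085_at, have little room above background.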
